A study of Mus musculus with 4 samples.

Results

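The genes that encode the proteins of the cytosolic ribosome were followed across reporter-sorted cells of the mouse main olfactory epithelium (MOE). They were taken by gene symbol alone, as every gene named Rpl or Rps with a number and at most an a, l or x behind it, together with *Rplp0* to *Rplp2* and *Rpsa*. This rule found 81 of the 24421 genes in the expression table, 49 of the large subunit and 32 of the small subunit. The rule reads symbols and no expression value, although the family was taken up with earlier results of these data known.

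Each cytosolic ribosome holds 1 copy of nearly every one of these proteins, so their genes are expressed together and at high level in growing and secreting cells. The large subunit joins amino acids, the small subunit decodes the mRNA, and the P stalk (Rplp0, Rplp1 and Rplp2) recruits the elongation factors. Their mRNAs typically begin with a C and a run of pyrimidines, the terminal oligopyrimidine (TOP) motif, through which mTORC1 signaling controls their translation. Some members have a close paralog, and the genome carries many processed pseudogenes of the family.

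The samples were 4 RNA-seq libraries of cells sorted by fluorescence from papain-dissociated MOE of mice that the labels call C57BL/6 and adult. The transgenes were injected into C57BL/6J eggs, but a reporting summary states a mixed background of C57BL/6J with another inbred strain for the lines of the study. Both transgenic lines carried a PiggyBac transgene, with an enhancer of the trace amine-associated receptor (TAAR) gene cluster placed before the minimal promoter of Hsp68. In the first line TAAR enhancer 1 drove GFP, and in the second TAAR enhancer 2 drove tdTomato. The mice's age is given as 14 days for the first line and as 14 to 21 days for the second in that summary, and not for the sorted cells as such. A single founder line of each was kept, so a reporter reflects 1 insertion pattern per construct. Each library was the only one of its group: GFP-positive, GFP-negative, tdTomato-positive or tdTomato-negative cells. The differences below therefore have no replicate check and no p-value, and they compare libraries. A line, its age and its sort cannot be told apart between the reporters.

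Levels are in TPM, a length-corrected share of a library's transcripts that sums to 1000000 in every library and keeps no depth. The 10 highest genes took 5.72% of TPM in the GFP-negative, 31.5% in the GFP-positive, 5.90% in the tdTomato-negative and 9.44% in the tdTomato-positive library. The sorts also differed in their makeup by marker genes. All 12 markers of mature olfactory sensory neurons (OSNs) were lower in both positive libraries, with a summed 3065 TPM in GFP-positive against 27841 in GFP-negative cells and 12861 in tdTomato-positive against 28641 in tdTomato-negative cells. The 9 Bowman gland markers, mostly secreted proteins, summed to 111391 against 3576 TPM in the GFP line and to 2095 against 342 TPM in the tdTomato line. All 9 were at least 2-fold higher in GFP-positive cells, while in tdTomato-positive cells 6 were higher, with most of the sum from *Bpifb9a* and *Bpifb9b*, and *Obp2a* (86.6 TPM in the negative and 0.58 in the positive library), *Muc2* and *Sox10* were at least 2-fold lower. Markers of multiciliated cells summed to 1926 against 600.5 TPM and to 6394 against 529.7 TPM, and sustentacular markers to 13992 against 1443 TPM and to 13563 against 2495 TPM. In the tdTomato line 4 of the 8 sustentacular markers were at least 2-fold higher and 2 (*Cyp2g1* and *Cyp1a2*) at least 2-fold lower. Of the markers in these 4 lists, *Ccdc153* and *Spag6l* (GFP-negative), *Tctex1d4* (both negative libraries) and *Spag6l* (tdTomato-positive) were listed at 0. Of the 7 immune-cell markers, 6 were at least 2-fold lower in both positive libraries, with list medians of -4.80 and -5.36 (log2), while *Lyz2* was higher in both, at 2043 against 1581 TPM and 1707 against 707 TPM. The markers together summed to 2211 against 6030 TPM and 1829 against 2659 TPM, most of both positive sums from *Lyz2*. The 8 immature OSN markers were lower in both positive libraries, at a summed 917 against 3865 TPM and 1641 against 3005 TPM. The 5 horizontal basal cell markers went in opposite directions in the lines. They summed to 434 against 57.9 TPM in the GFP line, where 4 were at least 2-fold higher (median 2.90), and to 32.0 against 152 TPM in the tdTomato line, where 5 were at least 2-fold lower (median -1.72). Of the 7 markers of globose basal cells and precursors, 4 were at least 2-fold lower and 3 higher in GFP-positive cells (median -1.09), and 5 were lower and 1 higher in tdTomato-positive cells (median -2.22). The markers of dividing cells among them, *Mki67* and *Top2a*, were lower in both lines, like most ribosomal protein genes, and more so in the tdTomato line (-1.83 and -1.09 against -3.26 and -2.22), whereas *Sox2* was higher in both. Of the endothelial and stromal markers, 4 reached 1 TPM in each line, *Col3a1* only in the GFP line and *Cdh5* only in the tdTomato line. Their medians were -1.42 and -0.94. In the GFP line 3 were lower and *Col1a1* was higher (2.09), and in the tdTomato line 4 were lower. *Alas2*, the only erythroid marker above 0, had differences of -3.54 and -1.93. The 8 genes of the dissociation response had median differences of 0.42 and -0.08 (log2). In bulk libraries, fewer cells of a type and less RNA per cell cannot be told apart. The part of cell makeup in the values that follow was not tested.

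Ribosomal protein genes were among the most abundant transcripts of every library. The median member stood at 664 TPM in GFP-negative, 521 in GFP-positive, 623 in tdTomato-negative and 345 in tdTomato-positive cells, where the median gene at 1 TPM or more stood at 25.2, 15.2, 27.6 and 27.3 TPM. Between 68 and 71 of the 81 members lay in the top 10% of genes of each library. By mean TPM over the libraries, 15 members were at 1000 or more, 55 between 100 and 1000, 5 between 10 and 100, and 3 above 0 but under 10. The other 3, *Rpl10l*, *Rpl26* and *Rpl39l*, were listed at 0 in all libraries.

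The highest member was *Rpl41*, a very short and basic large-subunit peptide, with 3272 TPM in GFP-negative, 2773 in GFP-positive, 2922 in tdTomato-negative and 2580 in tdTomato-positive cells. Its 4 values lay close together, with differences of -0.24 in the GFP line and -0.18 in the tdTomato line. All differences given here are the positive minus the negative library in log2(TPM + 1), so changes of low genes come out too small. The next by mean level was *Rplp1* of the P stalk, then *Rpl7*, *Rpl19* and *Rps4x*, the last of these on the X chromosome. *Rps4x* had 1400 TPM in GFP-negative, 1142 in GFP-positive, 1308 in tdTomato-negative and 772 in tdTomato-positive cells, and was lowest in the tdTomato-positive library like most of the family.

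Summed over all members, ribosomal protein genes made up 6.13% of TPM in GFP-negative and 4.82% in GFP-positive cells. They made up 5.55% in tdTomato-negative and 3.10% in tdTomato-positive cells. The positive library was thus the lower one in both lines, at 0.787 times the negative library with GFP (log2 ratio -0.35) and 0.558 times with tdTomato (log2 ratio -0.84), but by the median ratio over all genes the log2 ratio in the GFP line turned to 0.54. The negative libraries of the lines were closer to each other, with a ratio of 0.905 for tdTomato-negative to GFP-negative.

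Both subunits took part. Large-subunit genes summed to 3.62% and 2.89% of TPM in GFP-negative and GFP-positive cells and to 3.26% and 1.89% in tdTomato-negative and tdTomato-positive cells. For the small subunit the sums were 2.52%, 1.94%, 2.29% and 1.20% in the same order. The log2 ratios of positive to negative cells were -0.33 (large) and -0.38 (small) in the GFP line, and -0.79 and -0.93 in the tdTomato line.

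**Figure D1:**
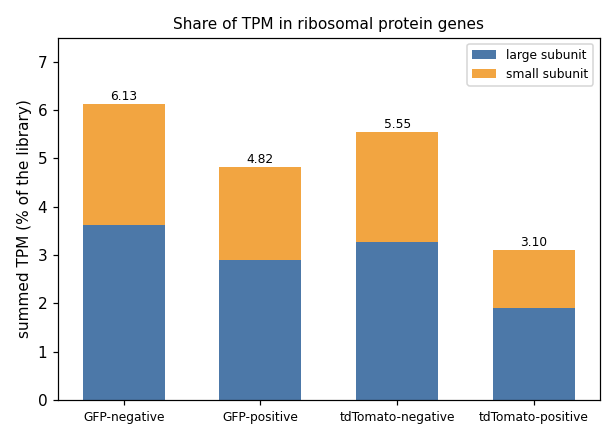
Share of each library's TPM (in %) taken by large-subunit (blue) and small-subunit (orange) ribosomal protein genes, 1 library per bar. The totals are 6.13, 4.82, 5.55 and 3.10%, with tdTomato-positive cells lowest.

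In the GFP line, the first question was how GFP-positive cells differed from the rest. Of the 78 members with at least 1 TPM in either library, 71 had the lower and 7 the higher value in GFP-positive cells. Their median difference was -0.40 (quartiles -0.53 and -0.22), against -0.88 for all 16173 genes at that level, of which 75.5% were lower. A difference of at least 2-fold was reached by 3 members in the lower direction (*Rpl3l*, *Rpl30* and *Rps15a*), where 45.0% of all genes reached it, and by 1 in the higher direction (*Rps27l*), where 14.2% did. *Rpl3l* and *Rpl30* passed the minimum only through GFP-negative cells, where they were higher, and at a minimum of 10 TPM *Rps15a* was the 1 member left, against 48.1% of all genes. Among genes with at least 100 TPM in either library, 1 of 71 members was 2-fold lower and 1 higher, against 49.9% and 11.7% of all genes. These were *Rps15a* and *Rps27l*, and each reached 100 TPM only in the library where it was higher. The members' own shares at 1 TPM were 3.85% and 1.28%. With respect to the median of all genes, 75 of the 78 lay above it.

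In the tdTomato line the members lay on the other side of the all-gene median. Of 76 members with at least 1 TPM, 74 were lower and 2 higher in tdTomato-positive cells. Their median difference was -0.90 (quartiles -1.11 and -0.69), against -0.23 for all 15777 genes, and 71 of the 76 lay below the median of all genes. At least 2-fold lower were 28 members, or 36.8%, against 23.2% of all genes, and 1 member (*Rps4l*) was 2-fold higher, against 17.2%. *Rpl34* passed the minimum only through tdTomato-negative cells, and at a minimum of 10 TPM 27 members were 2-fold lower, against 19.4% of all genes. At 100 TPM or more the gap was wider, with 26 of 71 members 2-fold lower against 13.3% of all genes and 0 higher against 19.5%. Of the 26, *Rps15a* and *Rpl31* reached 100 TPM only through tdTomato-negative cells, as *Rps27* among the 27 reached 10 TPM. The 28 were 15 of the 44 large-subunit and 13 of the 32 small-subunit members at 1 TPM or more.

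The rank of the members within their library was near its upper limit, where it can show little of a rise. In the GFP line the median member stood at percentile 99.0 of the genes at 1 TPM or more in GFP-negative and 98.9 in GFP-positive cells, and 48 of 76 members stood at a lower percentile and 28 at a higher one in GFP-positive cells. The median member moved from percentile 98.8 in tdTomato-negative to 97.4 in tdTomato-positive cells, where 73 of 75 members stood at a lower percentile and 2 at a higher one.

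The negative libraries, which come from different lines and ages, give a measure of how far libraries without the reporter lay apart. Of 78 members, 62 were lower and 16 higher in tdTomato-negative than in GFP-negative cells, with a median of -0.15, where 46.4% of all genes were lower and their median was 0.052. The members thus also lay on the lower side of all genes between the negative libraries, 65 of 78 below the all-gene median, by 0.20 at the median as against 0.67 in the tdTomato line. At least 2-fold lower were *Rpl30*, *Rpl3l* and *Rps4l*, 3 members against 12.4% of all genes, and 2-fold higher was *Rps27*, 1 member against 11.4%. *Rpl30* and *Rpl3l* passed the minimum only through GFP-negative cells, and at a minimum of 10 TPM *Rps4l* was the 1 member left, against 7.39% of all genes. At 100 TPM or more, 0 of 70 members were 2-fold lower or higher, against 3.18% and 3.22% of all genes. The standard deviation of these differences between members was 0.18 at that level, compared with 0.37 in the GFP line and 0.39 in the tdTomato line.

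The direction in the GFP line depended on how the libraries were scaled. When TPM were rescaled by the median ratio over 11943 genes, the all-gene median shifted by 0.81 in the GFP line and 0.15 in the tdTomato line, and the members' median turned to 0.49 in the GFP line and was -0.75 in the tdTomato line. Rescaling without 24 very abundant genes (the 10 leading genes of each library, pooled) shifted the all-gene median of the GFP line by 0.45 and also turned its members' median, to 0.11, with 51 of 78 members higher. Scaling to the 12 mature OSN markers turned the medians of both lines, to 2.67 and 0.12. Relative to the all-gene median, members lay 0.48 above it in GFP-positive cells and 0.67 below it in tdTomato-positive cells, and under each of the 3 other scalings they stayed above it in the GFP line and below it in the tdTomato line, since a common factor moves both medians together. The same shift applies to each gene. Of 32 members taken by the rule for named genes, 22, 14 and 23 had another sign in the GFP line under the median ratio, without the abundant genes and by OSN markers, and 0, 0 and 17 in the tdTomato line. Not all 32 could turn. *Rpl10l* and *Rpl39l* were listed at 0 throughout, and *Rpl3l* was at 0 in the tdTomato line. Members already higher in GFP-positive cells could not turn either, since each of these scalings raised the values of that line.

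**Figure D2:**
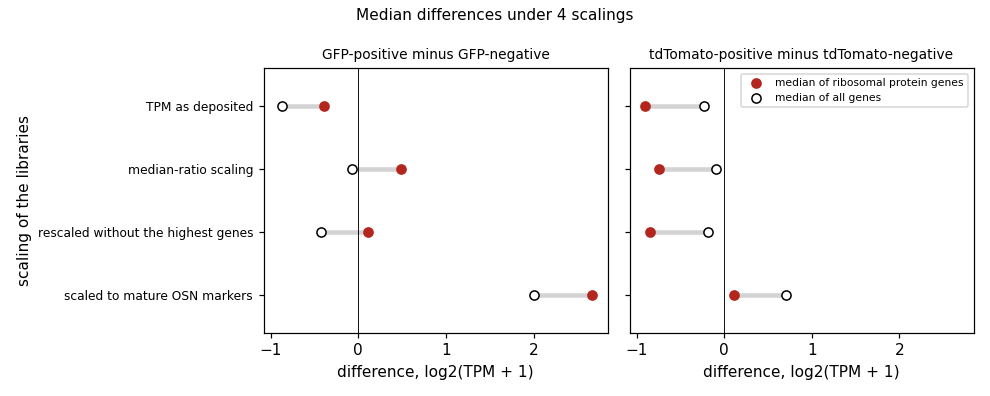
Median difference of ribosomal protein genes (filled) and of all genes at 1 TPM or more (open) in the GFP line (left) and the tdTomato line (right), on the log2(TPM + 1) scale, under the deposited TPM and 3 other scalings. The filled point lies right of the open one in each row on the left (-0.40 against -0.88 in the deposited TPM) and left of it in each row on the right (-0.90 against -0.23).

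Set side by side, the lines share no library, and 75 members had at least 10 TPM in each pair. Of these, 67 were lower in both positive libraries, 69 had the lower difference in the tdTomato line, 7 went in opposite directions, and 1 was higher in both. Of all 11057 genes at that level, 58.3% were lower in both, 22.3% had the lower difference in the tdTomato line, 26.4% went in opposite directions and 15.3% were higher in both. A scaling moves every gene of a line by about the same amount, and with it the 7 became 72 under the median ratio, 49 without the abundant genes and 23 by OSN markers, against 28.0%, 26.2% and 13.3% of all genes. Which members differed most was only weakly shared: Pearson's r of the differences was 0.43 and Spearman's rho 0.24 across the 75 genes, and without *Rps27l* and *Rps4l* they were 0.20 and 0.19 over 73. These describe genes of the same libraries, which are not independent replicates. The order of the levels themselves varied little, with Spearman's rho of log2(TPM + 1) between 0.92 and 0.97 for every pair of libraries.

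**Figure D3:**
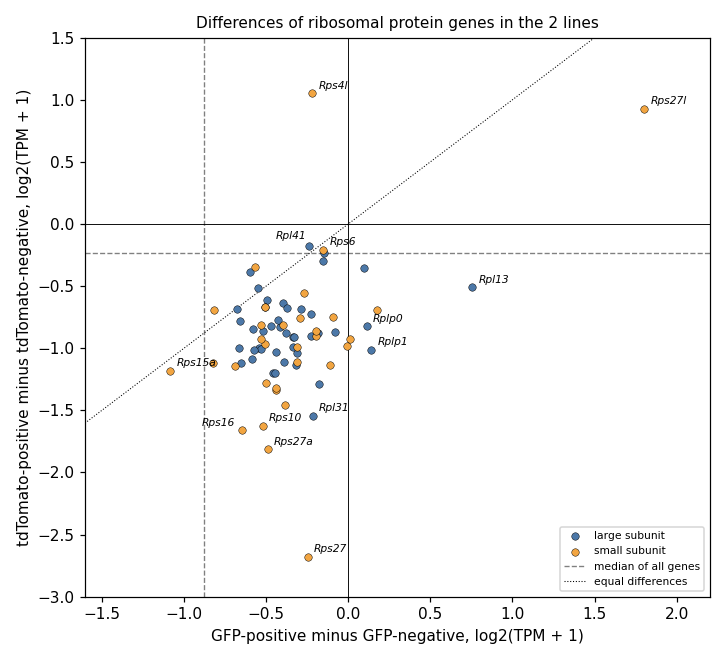
Difference of each of 75 ribosomal protein genes in the GFP line (x axis) and in the tdTomato line (y axis), positive minus negative library on the log2(TPM + 1) scale, with large-subunit genes in blue and small-subunit genes in orange. Most points lie in the lower left, right of the all-gene median of the GFP line (dashed, -0.88) and below that of the tdTomato line (dashed, -0.23), while *Rps27l* is alone in the upper right.

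*Rps27l* was the 1 member higher in both positive libraries. It encodes a small-subunit zinc-finger protein nearly identical to Rps27, and is known as a p53 target. It had 68.3 TPM in GFP-negative and 241 in GFP-positive cells, and 84.8 in tdTomato-negative and 162 in tdTomato-positive cells. Both positive libraries stood above both negative ones, with differences of 1.80 and 0.93, and these stayed above 0 under every scaling tried.

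Its paralog *Rps27* did not go the same way. It had 15.2 TPM in GFP-negative, 12.7 in GFP-positive, 35.0 in tdTomato-negative and 4.62 in tdTomato-positive cells, with differences of -0.25 and -2.68. In all libraries *Rps27* was the lower one of the pair. *Rps27* lies at chr3:90212522-90213651 on the minus strand and *Rps27l* at chr9:66946086-66949516 on the plus strand (GRCm38, GENCODE M21). The first 90 coding bases of each are shown because they tell how far reads of the genes can be separated; capitals mark the 24 bases at which they differ within this stretch.
Rps27: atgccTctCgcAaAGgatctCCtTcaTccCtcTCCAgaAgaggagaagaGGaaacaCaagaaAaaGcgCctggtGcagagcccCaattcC
Rps27l: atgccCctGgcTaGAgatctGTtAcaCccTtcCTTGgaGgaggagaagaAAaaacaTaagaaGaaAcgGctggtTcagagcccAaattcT
Over all 255 coding bases 194 were identical (76.1%), and the longest identical run was 11 bases. No window of 50 bases is shared between them. The coding sequence of *Rps27* is, however, held by the gene *Rps27rt* on chromosome 9, where 100% of its 50-base windows were found again and which the table lists at 0 in all libraries.

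The other paralogs varied. *Rps4l*, an autosomal relative of *Rps4x* that GENCODE M21 annotates as a transcribed processed pseudogene, had 52.4 TPM in GFP-negative, 44.9 in GFP-positive, 25.5 in tdTomato-negative and 53.8 in tdTomato-positive cells. The tdTomato-negative library was the low one and the other 3 lay close together. Its difference was -0.22 in the GFP line and 1.05 in the tdTomato line, and -1.01 between the negative libraries. *Rpl3l*, a muscle form of *Rpl3*, was listed at 1.44 TPM in GFP-negative cells and at 0 in the other libraries. The testis-expressed paralogs *Rpl10l* and *Rpl39l* were listed at 0 throughout. Of their parent genes, *Rpl10* had 1219 TPM in GFP-negative, 1102 in GFP-positive, 921 in tdTomato-negative and 785 in tdTomato-positive cells, and *Rpl39* had 578, 365, 364 and 181 TPM in the same order. *Rpl10* differed little in either line (-0.15 and -0.23), and *Rpl39* differed more in both (-0.66 and -1.00).

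The relatives that the symbol rule leaves out also varied, with *Rpl7l1* lower in both positive libraries in the deposited TPM (-0.48 and -0.84). *Rpl22l1*, the paralog of *Rpl22*, had 82.0 TPM in GFP-negative, 100 in GFP-positive, 85.0 in tdTomato-negative and 81.4 in tdTomato-positive cells. *Rpl22* itself had 78.9, 84.6, 89.1 and 69.6 TPM in these libraries. Neither gene differed by as much as 2-fold in either line. *Rpl36al*, an autosomal relative of the X-linked *Rpl36a*, had differences of 0.43 and 0.30 and was, like *Rps27l*, higher in both positive libraries. *Rpl36a* was lower in both (-0.18 and -1.29).

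*Rpl13*, a large-subunit gene on chromosome 8, went in opposite directions in the lines. It stood at 449 TPM in GFP-negative and 760 in GFP-positive cells, and at 364 in tdTomato-negative and 256 in tdTomato-positive cells. GFP-positive cells were the high library, and the differences were 0.76 and -0.51. Its share of all ribosomal protein TPM was 0.733% in GFP-negative and 1.57% in GFP-positive cells, and 0.657% and 0.825% in the tdTomato line.

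The P-stalk genes did not move as 1 unit in the GFP line. *Rplp0*, the stalk base, had 1208 TPM in GFP-negative, 1308 in GFP-positive, 1205 in tdTomato-negative and 681 in tdTomato-positive cells. *Rplp1* had 1542, 1699, 1701 and 844 TPM in the same order. *Rplp2*, whose product pairs with Rplp1, had 982, 714, 887 and 385 TPM. In GFP-positive cells *Rplp0* and *Rplp1* were slightly higher (0.11 and 0.14) and *Rplp2* was lower (-0.46), while all 3 were lower in tdTomato-positive cells (-0.82, -1.01 and -1.20); by the median ratio *Rplp2* too was higher in GFP-positive cells (0.42).

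On the small subunit, *Rps2* had 568 TPM in GFP-negative, 642 in GFP-positive, 504 in tdTomato-negative and 312 in tdTomato-positive cells, with differences of 0.18 and -0.69. *Rpsa*, whose product is also known as the laminin receptor, had 1002, 622, 1082 and 491 TPM and was lower in both lines (-0.69 and -1.14). *Rps3*, a protein of the mRNA entry site, was near the family's median in both lines (-0.40 and -0.81). *Rps6*, the substrate of S6 kinase, was among the most even members, with 943 TPM in GFP-negative, 850 in GFP-positive, 941 in tdTomato-negative and 816 in tdTomato-positive cells. Its differences were -0.15 and -0.21. With most others lower in tdTomato-positive cells, the share of all ribosomal protein TPM taken by *Rps6* was 1.70% in tdTomato-negative and 2.63% in tdTomato-positive cells, and that of *Rpl41* was 5.27% and 8.33%.

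The largest differences of well-expressed members in the tdTomato line were on the small subunit. *Rps27a*, which is made as a fusion with ubiquitin, had 458 TPM in GFP-negative, 326 in GFP-positive, 371 in tdTomato-negative and 105 in tdTomato-positive cells. *Rps16* had 1161, 740, 1039 and 328 TPM in that order. Both were lowest in tdTomato-positive cells, by -1.81 and -1.66, and *Rps10* (-1.62) and *Rpl31* (-1.54) followed. In the GFP line these 4 differed by -0.49, -0.65, -0.52 and -0.22.

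In the GFP line the lowest difference of a member at 10 TPM or more was that of *Rps15a*, with 138 TPM in GFP-negative and 64.3 in GFP-positive cells. It was also low in the tdTomato line, at 122 and 53.4 TPM, with differences of -1.08 and -1.18. *Rps13* was also low, at -0.82 and -1.12, and *Rpl9* had nearly the same difference in both lines, at -0.68 and -0.69. *Rpl5* and *Rpl11*, which bind Mdm2 outside the ribosome with the 5S rRNA, differed by -0.29 and -0.51 in the GFP line and by -0.69 and -0.67 in the tdTomato line.

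Of the ribosomal proteins with other symbols, *Fau*, *Gnb2l1* and *Rps3a1* were lower in both positive libraries in the deposited TPM, unlike *Rpl36al* above. *Fau*, the precursor of small-subunit protein S30, had 717 TPM in GFP-negative, 362 in GFP-positive, 696 in tdTomato-negative and 249 in tdTomato-positive cells. Both positive libraries lay below both negative ones. The differences were -0.99 and -1.48 for *Fau*, -0.26 and -1.03 for *Gnb2l1* (the older symbol of *Rack1*) and -0.55 and -0.93 for *Rps3a1*.

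Several members have coding sequence in common with other genes, so that short reads can match both. Each member's coding sequence was read in windows of 50 bases, and the windows were looked for in the annotated transcripts of every other gene (GENCODE M21). Of 80 members with a coding transcript, 12 shared at least 50% of their windows with another gene of the table, and 6 of these 12 had a mean under 100 TPM (*Rpl21*, *Rpl26*, *Rpl30*, *Rpl34*, *Rps15a* and *Rps27*). Among the other 68, 4 were under 100 TPM (*Rpl22* and the paralogs *Rpl3l*, *Rpl10l* and *Rpl39l*). The median of the mean TPM was 180 in the first set and 598 in the second. Spearman's rho between the share of windows and the mean TPM was -0.27 across the 80 genes. Counted over every annotated gene, in the table or not, at least 50% of the windows were shared by 65 members. Of these 65, 6 had a mean under 100 TPM, against 4 of the 15 others, and Spearman's rho was -0.046. The contrast in members under 100 TPM was thus not seen with this count. The median of the mean TPM was still lower in the 65, at 512 against 719 in the 15.

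Of the 6 members with a mean under 10 TPM, 3 were of the first set. *Rpl26* (chr11:68901583-68906989, plus strand), a large-subunit protein near the exit tunnel, was listed at 0 in all libraries. Of its windows 74.3% were in *Gm15772*, which was also listed at 0. *Rpl30* (chr15:34440505-34443640, minus strand) had 2.71 TPM in GFP-negative and 0.808 in GFP-positive cells and was listed at 0 in the tdTomato line, and 83.3% of its windows were in *Gm12191*, listed at 0. *Rpl34* (chr3:130726831-130730398, minus strand) had 8.68, 4.46 and 5.07 TPM in GFP-negative, GFP-positive and tdTomato-negative cells, and was listed at 0 in tdTomato-positive cells. Its windows were in *Rpl34-ps1* to 71.5%, also listed at 0. Sharing did not always go with a low value, since *Rps23* shared 91.1% of its windows with *Gm5148* and had a mean of 1037 TPM. How reads that match several genes were handled is not given in the sources used here, and its part in these levels was not tested.

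**Figure D4:**
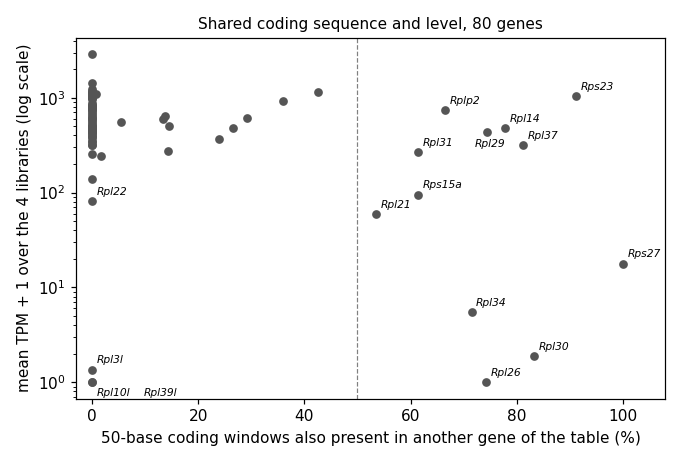
Share of each gene's 50-base coding windows that occur in another gene of the table (x axis, %) against its mean TPM + 1 over the 4 libraries (y axis, log scale) for 80 ribosomal protein genes. Of the 12 genes right of the dashed line at 50%, 6 have a mean under 100 TPM, against 4 of the 68 genes left of it. When sharing with any annotated gene was counted, this contrast under 100 TPM was not seen (6 of 65 against 4 of 15). The median level was still lower in the sharing genes by that count (512 against 719 TPM).

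The family's medians and sums changed little when the 12 sharing members were left out, a choice made after the data were seen. The medians were then -0.40 in the GFP line and -0.89 in the tdTomato line, and the summed shares 5.69, 4.48, 5.15 and 2.90% of TPM in GFP-negative, GFP-positive, tdTomato-negative and tdTomato-positive cells. At least 2-fold lower were then 1 of 67 members in the GFP line and 22 of 66 in the tdTomato line, against 45.0% and 23.2% of all genes. The 7 ribosomal protein pseudogenes in the table summed to 517, 452, 543 and 205 TPM, nearly all of it from *Rpl14-ps1*. This copy had 497, 448, 512 and 196 TPM in the same order of libraries, and shared 77.9% of the windows of *Rpl14*. *Rpl14* had 550, 521, 550 and 300.2 TPM, so that both were lowest in tdTomato-positive cells.

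The letters at the annotated transcription starts were read for the 60 members with an entry in the RefSeq promoter table (GRCm38.p6). The TOP motif was searched on the strand of the gene as a C at the first base followed by at least 4 letters that are C or T. It was found in 13 members (21.7%), against 3.01% of all 27025 genes in the table. With the start allowed to lie up to 2 bases off, the shares were 35.0% of members and 10.6% of genes. Starts of some members described above are shown, with the motif and then without it, since most members lacked it at the first base. They run from 10 bases before the annotated first base, on the strand of the gene, with the C and its pyrimidine run in capitals.
Rps6, chr4:86857348-86857377, minus strand: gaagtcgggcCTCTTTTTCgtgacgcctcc
Rps10, chr17:27635225-27635254, minus strand: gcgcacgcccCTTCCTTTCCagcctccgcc
Rplp2, chr7:141447641-141447670, plus strand: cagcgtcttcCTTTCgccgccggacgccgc
Rps15a, chr7:118116128-118116157, minus strand: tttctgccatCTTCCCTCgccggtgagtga
Rps27, chr3:90213629-90213658, minus strand: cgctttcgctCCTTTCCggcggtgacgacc
Rps27l, chr9:66946076-66946105, plus strand: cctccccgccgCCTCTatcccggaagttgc
Rpl41, chr10:128549149-128549178, minus strand: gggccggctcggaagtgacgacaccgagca
Rplp0, chr5:115559457-115559486, plus strand: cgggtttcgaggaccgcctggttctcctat
Rps2, chr17:24720053-24720082, plus strand: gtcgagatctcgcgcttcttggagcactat
Rps16, chr7:28350679-28350708, plus strand: ttctgtcgtgacgtagcactcaatgcgcct
*Rps27l* has its C at the second base of the annotated transcript and a run of 5, and *Rps6* has a run of 9. Differences with and without the motif were compared for members at 10 TPM or more. The 13 with the motif had a median of -0.40 in the GFP line and -0.99 in the tdTomato line, and the other members with an entry had -0.38 and -0.82. With the start up to 2 bases off, the medians were -0.39 and -0.98 with the motif and -0.38 and -0.81 without it. The gap in the tdTomato line was not tested. *Rps6* and *Rps10*, both with the motif at the first base, lay near opposite ends of the range in the tdTomato line (-0.21 and -1.62). A match in this window is a description of letters, and an annotated start may be some bases away from the start used in these cells.

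Other genes of the translation machinery did not all follow the ribosomal proteins. Elongation factors and further TOP mRNAs (12 genes) had medians of -0.38 in the GFP line and -0.62 in the tdTomato line, and 12 of 12 were lower in each, against 75.5% and 60.0% of all genes. *Eef1a1*, the main carrier of aminoacyl-tRNA, had 5454 TPM in GFP-negative, 5187 in GFP-positive, 5316 in tdTomato-negative and 4285 in tdTomato-positive cells. Its neuronal and muscle paralog *Eef1a2* had 398, 43.7, 410 and 255 TPM and was far lower in GFP-positive cells (-3.16). By the median ratio the medians of this list became 0.50 and -0.47, so that its direction in the GFP line turned like that of the ribosomal proteins. *Pabpc1*, the poly(A)-binding protein, was even in the GFP line (349 and 349 TPM) and lower in the tdTomato line (373 and 179 TPM).

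Initiation factors (29 measured genes) had medians of -0.76 and -0.37, with 7 at least 2-fold lower and 0 higher in the GFP line, against 45.0% and 14.2% of all genes. In the tdTomato line 1 was lower and 2 were higher, against 23.2% and 17.2%. The 2 were *Eif1a* and *Eif1ax*, which encode forms of eIF1A and differed by 1.58 and 1.27. Ribosome biogenesis genes (26) had medians of -0.78 and -0.45. In both lists the GFP line had the lower median, the reverse of the ribosomal proteins, but by the median ratio these medians were 0.13 and -0.22 for initiation and 0.09 and -0.30 for biogenesis. *Myc*, a transcription factor that drives biogenesis genes, had 20.7 TPM in GFP-negative, 6.58 in GFP-positive, 25.5 in tdTomato-negative and 0.0493 in tdTomato-positive cells.

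Genes of TOP control and mTORC1 (12) had a median of -1.10 in the GFP line, against -0.88 for all genes, and 6 were at least 2-fold lower, a share near the 45.0% of all genes. In the tdTomato line their median was -0.09, and 0 were at least 2-fold lower or higher, against 23.2% and 17.2% of all genes. *Larp1*, which binds the TOP motif, had 68.7 TPM in GFP-negative, 25.2 in GFP-positive, 78.8 in tdTomato-negative and 80.6 in tdTomato-positive cells. *Mtor* itself had 25.1, 9.92, 25.6 and 33.0 TPM. Both were lowest in the GFP-positive library. By the median ratio the medians of this list were -0.27 and 0.05, and by OSN markers 1.85 and 0.86.

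The proteins of the mitochondrial ribosome, encoded in the nucleus by a separate set of 77 genes, gave a contrast with the cytosolic ones. Their sums were 5238 TPM in GFP-negative, 3502 in GFP-positive, 4600 in tdTomato-negative and 4445 in tdTomato-positive cells. Their medians were -0.61 in the GFP line, where 15 were at least 2-fold lower and 2 higher (45.0% and 14.2% of all genes), and -0.13 in the tdTomato line, where 6 were lower and 4 higher (23.2% and 17.2% of all genes). In the GFP line mitochondrial members thus had the lower median (-0.61 against -0.40 for cytosolic members) and in the tdTomato line the higher one (-0.13 against -0.90). By the median ratio the mitochondrial medians were 0.25 and 0.02. A ratio of sums within a library does not depend on scaling: cytosolic members summed to 11.7 times the mitochondrial ones in GFP-negative and 13.8 times in GFP-positive cells, and to 12.1 times in tdTomato-negative and 6.96 times in tdTomato-positive cells. The tdTomato-positive library was also lowest in the ratio of cytosolic ribosomal proteins to initiation factors (8.66, 12.3, 8.47 and 5.93 in the same order) and to elongation factors and further TOP mRNAs (5.04, 4.77, 4.78 and 3.59). These differences between lists were not tested.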

How the data were processed

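RNA was sequenced from sorted MOE cells, 1 library for each of 4 groups, mapped from the labels. The deposited table holds TPM per gene symbol for these libraries, a normalized unit made by the authors. The submitters' processing notes name Trimmomatic 0.36 and Salmon 1.4.0, whereas the study's methods describe HISAT2, Cufflinks and featureCounts, and kits for library preparation also differ between the labels and the methods. The annotation and the handling of reads that match several genes are not given in the sources used here. TPM keep no depth, so no counting interval was computed. Differences were taken on log2(TPM + 1) for genes at 1 TPM or more in either library, and a difference of 2-fold was called. The step that computes and calls differences was tested on simulated data. Named genes were the 5 highest members by mean, the 5 highest and lowest differences of each line at 10 TPM or more, the paralogs with their parents, members of known role, relatives with other symbols and those at 0; genes named from other lists were chosen after their values were seen. Single values of some of these genes are not reported here. Members and lists were chosen with earlier results of these data known. Alternatives were 2 pseudocounts, 3 minimum levels, 2 folds, 3 scalings and other member sets. Coding windows and positions came from GENCODE M21 (GRCm38), and promoter starts from RefSeq (GRCm38.p6). Python 3.11.15, NumPy 2.4.6, pandas 2.3.3 and Matplotlib 3.10.9 were used.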

Additional observations from a re-analysis of the deposited data

Results flagged for a closer look

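Among members at 10 TPM or more in both pairs, these had opposite directions in the lines, GFP-positive minus GFP-negative against tdTomato-positive minus tdTomato-negative on log2(TPM + 1). With 1 library per group the difference was not tested. The widest were *Rpl13* (0.76 and -0.51) and *Rps4l* (-0.22 and 1.05), which ran in reverse order. The P-stalk genes *Rplp1* (0.14 and -1.01) and *Rplp0* (0.11 and -0.82) and the small-subunit gene *Rps2* (0.18 and -0.69) were near 0 in the GFP line and lower in the tdTomato line. *Rpl22* had 0.10 and -0.35, both small.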

How the results depend on the processing

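With 1 library per group, no value has a replicate error, leave-one-out was not possible, and depth is unknown because TPM keep none. No paired analysis was possible because the labels give no replicate numbers and a group has 1 library. The members' directions in the GFP line rest on the scaling, and the cause was not tested. By the median ratio the median of the members in the GFP line was 0.49 and the log2 ratio of their sums 0.54, with 1 member at least 2-fold lower and 4 higher (21.7% and 21.4% of all genes), and in the tdTomato line 14 were lower and 2 higher (19.9% and 18.5%). Rescaled without the abundant genes, the GFP line had a median of 0.11, a sum ratio of 0.16, 1 member lower and 2 higher (29.7% and 17.6% of all genes), and a summed share of 7.36% in GFP-positive cells. By mature OSN markers it had 2.67, 2.73, 0 lower and 76 higher, where the all-gene median was itself at 2.00 and 7.76% and 76.9% of all genes were called. The tdTomato line had 0.12, 0.18, 2 lower and 2 higher (12.6% and 37.5% of all genes), and between the negative libraries 0 were higher (7.17%). Under that scaling *Rps15a* was 1.97 in the GFP line, and *Rplp1* and *Rpl39* were 0.010 and 0.016 in the tdTomato line.

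Counts of members called moved with the threshold. With a pseudocount of 10, 0 were lower in the GFP line (24% of all genes), 0 higher in the tdTomato line (8.47%), and 0 lower and 0 higher between the negative libraries (3.22% and 2.68%). A minimum of 10 TPM left 1 lower in the GFP line (48.1% of all genes) and 1 lower between the negative libraries (7.39%). A minimum of 100 TPM left 1 lower in the GFP line (49.9%), 0 higher in the tdTomato line (19.5%), and 0 lower and 0 higher between the negative libraries (3.18% and 3.22%). At 1.5-fold, 14 were lower and 2 higher in the GFP line (60.5% and 17.0% of all genes), 64 lower and 2 higher in the tdTomato line (35.7% and 23.5%), and 6 lower between the negative libraries (19.0%). At 4-fold, the tdTomato line had 2 lower and 0 higher (11.4% and 8.20% of all genes), and the GFP line (16.7% and 7.36%) and the negative libraries (4.79% and 3.6%) 0 lower and 0 higher. Without the paralogs, 0 were higher in the GFP line (14.2% of all genes), 0 higher in the tdTomato line (17.2%), and 1 lower between the negative libraries (12.4%). Without members that share windows, a choice made after seeing the data, 1 was lower in the GFP line (45.0% of all genes) and 0 were higher between the negative libraries (11.4%). With starts up to 2 bases off, 35.0% of members had the TOP motif. The 106 other values of these summaries kept their direction and stayed within 0.58 (log2) or 1.5 times. Of 320 values of single members, 230 stayed within 0.58 of the deposited TPM, some with a change of sign near 0. The 230 include values that could not move, of genes listed at 0. These were *Rpl10l* and *Rpl39l* in both lines and *Rpl3l* in the tdTomato line.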
